A study of Mus musculus with 22 samples.

Results

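The genes described here encode the histone variant H3.3 and the chaperones that deliver it to chromatin: H3f3a, H3f3b, Hira, Ubn1, Cabin1, Asf1a, Asf1b, Daxx and Atrx. They were taken by symbol, as every gene of the deposited expression table whose symbol equals one of these names, which gave 9 of 55335 genes. Their transcripts were measured by RNA-seq in control and H2A.Z KD mouse embryos, as 2-cell embryos, morulae and blastocysts. H2A.Z is another histone variant, and the study asked about its part in gene expression and histone modifications of early embryos.

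The embryos came from matings between B6D2F1 mice, with mothers of 8 weeks, and each of the 22 libraries pooled 15 embryos. Collection of 2-cell embryos was at 43 to 44 h post hCG (4 control and 3 KD libraries), that of morulae at 78 h (4 and 3) and that of blastocysts at 94 h (4 and 4). The study reported that far fewer KD than control embryos formed blastocysts. How the KD embryos of the blastocyst libraries were chosen is not stated, so these groups may differ in developmental progress. KD embryos had received about 10 pL of a mix of siRNAs against H2A.Z, at 20 µM, as zygotes at 20 to 22 h post hCG, whereas the treatment of the control embryos of these libraries is not stated. Polyadenylated RNA was amplified by Smart-seq2 with 16 to 18 cycles and read as pairs of 150 bp, and expression is given as FPKM, a level normalized for transcript length and library total.

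H3.3 differs from the replication-coupled H3 proteins in being deposited throughout the cell cycle, and separate chaperones place it at different sites. The HIRA complex deposits it at genes and regulatory elements and, after fertilization, on the paternal genome, while DAXX with ATRX deposits it at telomeres, pericentric repeats and other heterochromatin. ASF1 proteins carry H3-H4 dimers to HIRA, and the oocyte supplies both H3.3 and chaperone RNA to the early embryo.

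The targeted gene was examined first. H2afz, which encodes H2A.Z, was at 1244, 1236, 905 and 1178 FPKM in the control 2-cell libraries and at 415, 139 and 112 FPKM in the KD libraries. In morulae, H2afz was at 1158, 1336, 1511 and 1421 FPKM in controls and at 30.3, 25.7 and 29.0 FPKM after KD. In blastocysts, H2afz was at 2656, 2431, 1945 and 2055 FPKM in controls and at 64.2, 67.2, 53.2 and 57.6 FPKM after KD. Every KD library lay below every control library of its stage, and KD replicate 1 of the 2-cell stage kept the most H2afz RNA of the KD libraries. The log2 fold change of H2afz was -5.41 in morulae (limma, adjusted p = 9.71e-08) and -5.19 in blastocysts (limma, adjusted p = 3.63e-08). At the 2-cell stage it was -2.53, with a limma p of 4.47e-05 and an adjusted p of 0.543, and without KD replicate 1 it was -3.12 (adjusted p = 0.000907). H2afv, the second H2A.Z gene, fell by 2.93 in morulae (limma, adjusted p = 2.93e-06) and by 1.86 in blastocysts (limma, adjusted p = 7.95e-05) on the log2 scale. In 2-cell embryos its log2 fold change of -0.23 did not pass (limma, adjusted p = 0.840).

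The stage labels were then compared with marker genes, by the summed FPKM of each list in a library. All 5 transcripts of the oocyte list had a mean of at least 1 FPKM in 2-cell controls, where the list summed to 730.4 to 991 FPKM (Oosp1 was the most abundant). Its sum was 4.62 to 10.0 FPKM in control morulae and 1.71 to 2.17 FPKM in control blastocysts. In KD libraries the oocyte list summed to 779.8 to 1032, 7.98 to 10.7 and 1.97 to 4.76 FPKM at the 3 stages. The 2-cell marker list, whose most abundant gene at every stage was Dppa3, had 5 of 5 genes at a mean of at least 1 FPKM in 2-cell controls, 2 of 5 in control morulae and 1 of 5 in control blastocysts. Its sums were 3800 to 6639, 4673 to 7329 and 4095 to 6173 FPKM in these groups, and 5210.0 to 7405, 6553 to 6848 and 3463 to 6077 FPKM in the KD groups, where 5, 2 and 2 of the 5 genes had such a mean. Zfp352 of this list, named after its values were seen, was at 0.0826 to 0.772 FPKM in control and 1.52 to 5.02 FPKM in KD blastocysts, without overlap.

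Of 7 trophectoderm markers, 7 had a mean of at least 1 FPKM in blastocysts, with Krt18 the most abundant, and Cdx2 was at 0 in all control 2-cell libraries. The trophectoderm list summed to 9.61 to 19.2 FPKM in 2-cell controls and 9.82 to 13.4 FPKM in 2-cell KD embryos, and to 134 to 165 FPKM in control and 104 to 133 FPKM in KD morulae. As deposited, all KD morula sums lay below all controls, by a narrow margin, and they overlapped after scaling. Gata3 (16.5 to 22.7 FPKM in control and 9.88 to 14.3 FPKM in KD morulae) and Tfap2c (15.0 to 24.6 and 13.1 to 14.3 FPKM) were lower without overlap as deposited, and the other 5 genes overlapped. In control blastocysts its sums were 1003, 1483, 1320.1 and 997 FPKM, and in KD blastocysts 599, 751, 807 and 616 FPKM, so that all KD sums lay below all control sums. Most of this sum was Krt18, at 646 to 992 FPKM in control and 329 to 461 FPKM in KD blastocysts, and the rest of the list, named after its values were seen, did not move in 1 direction. Tfap2c (3.20 to 8.36 FPKM in control and 10.6 to 18.4 FPKM in KD blastocysts) and Tead4 (5.20 to 9.60 and 9.77 to 23.8 FPKM) were higher after KD without overlap, and Krt8, Gata3, Eomes and Cdx2 overlapped between the groups. Mean levels of Krt8 were 343 FPKM in control and 239 FPKM in KD blastocysts, and those of Cdx2 1.79 and 1.89 FPKM. The inner cell mass list (5 genes) summed to 19.3 to 38.2 FPKM in 2-cell controls, 22.0 to 28.5 FPKM in 2-cell KD embryos, 127 to 169 FPKM in control morulae and 41.7 to 57.8 FPKM in KD morulae. In control morulae most of the sum was Nanog, which was at 62.9 to 143 FPKM in control and 11.6 to 32.5 FPKM in KD libraries. Of the other inner cell mass genes, also named after their values were seen, Pou5f1 was lower in KD morulae without overlap, by a narrow margin (21.5 to 55.3 and 16.3 to 21.3 FPKM). Klf2 was higher in KD morulae without overlap (3.46 to 6.86 and 7.61 to 9.07 FPKM), and Fgf4 and Sox2 overlapped. Klf2 was also higher in 2-cell KD embryos without overlap (0.597 to 1.23 and 1.42 to 1.82 FPKM). Of the 5, 4 had a mean of at least 1 FPKM in blastocysts of either group. Their blastocyst sums, led by Nanog, were 113, 135, 222 and 135 FPKM in controls and 138, 153, 277 and 197 FPKM after KD, and these groups overlapped, whereas Fgf4 was lower after KD without overlap (0.710 to 1.01 and 0.459 to 0.554 FPKM). The 4 primitive endoderm markers summed to 1.53 to 10.5, 9.01 to 28.0 and 10.2 to 20.3 FPKM in controls of the 3 stages and to 1.79 to 5.98, 9.45 to 10.5 and 10.2 to 37.1 FPKM in KD embryos. Gata6 led the later sums, with means of 10.6 FPKM in control and 19.0 FPKM in KD blastocysts. Blastocyst means of Pdgfra (1.72 and 0.595 FPKM) and Sox17 (0.596 and 0.277 FPKM) went the other way, and each of these genes overlapped there. In morulae, Pdgfra was lower and Gata4 higher after KD without overlap, both below 1 FPKM. These genes were also named after their values were seen. Cumulus and granulosa cell markers (6 genes) summed to 0.864 to 3.41 FPKM in 2-cell libraries, with Tnfaip6 the most abundant, and to no more than 0.168 FPKM in the libraries of later stages. Ptx3 of that list was at 0 in all 22 libraries. In such bulk libraries, fewer cells of a type and less RNA per cell cannot be told apart, and the part of these differences of single markers in the results below was not tested.

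The relative depth of the libraries, estimated from the smallest step between low values, was 18.0 to 27.3 in control and 20.8 to 27.1 in KD 2-cell embryos, in arbitrary units. It was 20.8 to 28.7 in control and 20.1 to 28.0 in KD morulae, and 14.8 to 22.1 in control and 17.2 to 21.2 in KD blastocysts. Depth in reads is unknown.

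Levels of the 9 genes, compared as FPKM and therefore per length, spanned a wide range. H3f3b was the most abundant of them in all 6 groups by mean FPKM, and H3f3a came next. In 2-cell controls the order of mean levels was H3f3b, H3f3a, Asf1b, Asf1a, Atrx, Ubn1, Cabin1, Hira and Daxx. Only the neighbours Cabin1 and Hira, and Hira and Daxx, had overlapping libraries there. In control blastocysts the order was H3f3b, H3f3a, Asf1a, Asf1b, Atrx, Daxx, Ubn1, Hira and Cabin1, with overlap between H3f3a and Asf1a and between each pair of neighbours from Daxx downwards.

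**Figure D1:**
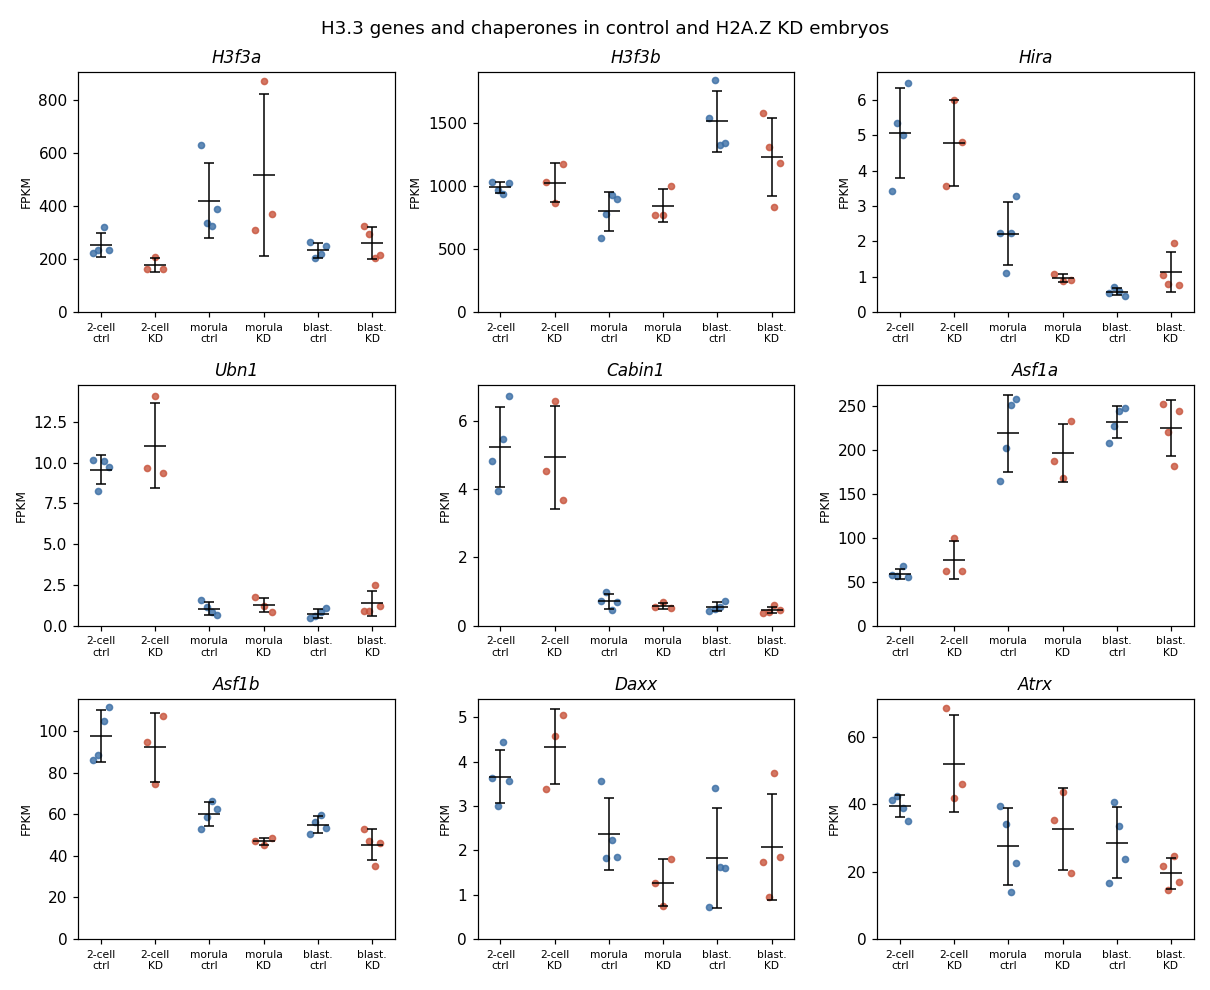
Deposited FPKM (y axis, linear, 1 panel per gene) of the 9 genes in each library, by stage and treatment (control in blue, H2A.Z KD in red), with bars for the mean and SD of 3 or 4 libraries. Ubn1 was at 8.29 to 10.2 FPKM in control 2-cell libraries and at 0.458 to 1.05 FPKM in control blastocysts, and Asf1a at 55.2 to 67.5 and 208 to 248 FPKM.

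The KD effect was tested next, across all genes. In 2-cell embryos, 12160 genes were tested with limma after a filter on low FPKM, and 0% passed an adjusted p (Benjamini-Hochberg) under 0.05 as higher and 0% as lower in KD. All 9 genes of the set were tested at that stage and 0 passed. At an unadjusted limma p under 0.05 there were 701 of all genes and 1 of the 9, H3f3a. In morulae, 4.23% of 10989 tested genes passed as higher and 9.04% as lower. Of the set, 8 were tested, 0 passed in either direction by limma, and 2 had an unadjusted p under 0.05 (Hira and Daxx), beside 3352 of all genes. In blastocysts, 16.7% of 11828 tested genes passed as higher and 19.8% as lower, 7 of the set were tested, and 0 passed by limma, with 0 at an unadjusted p under 0.05, beside 5439 of all genes. Cabin1 was below the filter in morulae, and Hira and Cabin1 were below it in blastocysts. The median log2 fold change of the tested members was 0.11, 0.09 and -0.05 at the 3 stages, beside 0.00, 0.02 and 0.00 over all genes tested.

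Groups without overlap were counted on FPKM as deposited. In 2-cell embryos, KD libraries lay below all controls for 1 of the 9 genes (H3f3a), beside 4.13% of all tested genes, and above all controls for 0, beside 2.65%. In morulae, 3 of the 8 tested genes were lower without overlap (Hira, Asf1b and Daxx), beside 22.9% of all tested genes, and 0 were higher, beside 6.7%. In blastocysts, 0 of the 7 tested genes were lower and 0 higher without overlap, beside 20% and 14.6% of all tested genes. After scaling, Asf1b and Daxx overlapped in morulae and Hira stayed apart by a narrow margin, while Asf1a of 2-cell embryos came apart as higher in KD. None of these counts was read as particular to the set.

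**Figure D2:**
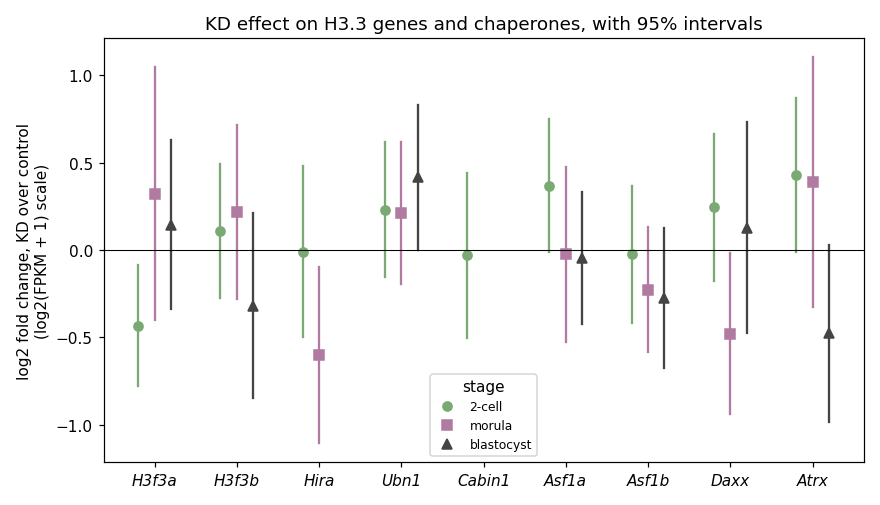
Log2 fold change of KD over control (y axis) for each of the 9 genes (x axis) that passed the low-value filter, at each stage, with 95% intervals from limma. H3f3a in 2-cell embryos was at -0.43, Hira in morulae at -0.60 and Atrx in blastocysts at -0.48, and 0 of the values passed the adjusted threshold.

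The 2 H3.3 genes come first. H3f3a (ENSMUSG00000060743.12, chr1:180800832-180813943, minus strand, mm10) and H3f3b (ENSMUSG00000016559.14, chr11:116021912-116027962, minus strand) both encode H3.3. Their coding regions are 411 bases each, and 95 of the aligned bases differ (76.9% identity). The longest stretch that the coding regions share is 23 bases, which is shorter than a read of 150 bp. The first 75 coding bases are shown because they make visible how reads of these genes can be told apart although both encode H3.3. Capitals mark the 17 bases at which the genes differ, in 5′ to 3′ direction of the minus strand, at chr1:180811852-180811926 and chr11:116023935-116024009.
H3f3a: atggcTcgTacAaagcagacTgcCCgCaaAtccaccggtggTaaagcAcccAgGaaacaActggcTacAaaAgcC
H3f3b: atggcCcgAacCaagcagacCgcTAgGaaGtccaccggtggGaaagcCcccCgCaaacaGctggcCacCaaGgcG

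H3f3a is less distinct from its own processed copies. Of its 3757 transcript stretches of 100 bases, 20.8% also occurred in other annotated genes, and 5.64% did so in the sense direction. The other genes numbered 15, of which 13 were processed pseudogenes in the sense direction. The summed FPKM of these 13 copies was 143 to 158 in control and 101 to 161 in KD 2-cell embryos. For H3f3b, 1.92% of the stretches were shared, with 2 copies that together were at 36.0 to 71.5 FPKM in control 2-cell libraries. How the deposited FPKM divided shared reads is not known.

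H3f3a was at 223, 235, 321 and 234 FPKM in the control 2-cell libraries and at 164, 208 and 162 FPKM in the KD libraries. All 3 KD libraries lay below all 4 controls, and control replicate 4 stood above the other controls. The log2 fold change was -0.43 (SE 0.16, 95% interval -0.78 to -0.09) with an adjusted limma p of 0.828. The two-sided exact permutation test gave p = 0.0286 (4 against 3 libraries), the smallest that its 35 arrangements allow. The difference of H3f3a was -0.35 without control replicate 4 and -0.39 without KD replicate 1, the KD library with the most H2afz. With the 13 copies added, the sum was 377 to 465 FPKM in controls and 262 to 369 FPKM after KD. These groups did not overlap, by a narrow margin.

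In morulae H3f3a was at 631, 337, 326 and 389 FPKM in controls and at 311, 870.1 and 371 FPKM in KD. In each group 1 library, control replicate 1 and KD replicate 2, was far above the rest, and the groups overlapped. The log2 fold change was 0.32 (95% interval -0.40 to 1.05, limma, adjusted p = 0.535), and it was -0.13 without KD replicate 2 and 0.65 without KD replicate 1. In blastocysts H3f3a was at 265, 203, 218 and 247 FPKM in controls and at 324, 296, 204 and 217 FPKM in KD. The groups overlapped, and the log2 fold change of 0.15 did not pass (95% interval -0.34 to 0.63, limma, adjusted p = 0.649). With 1 blastocyst library left out it ranged from 0.00264 to 0.31, the lowest without KD replicate 1 and the highest without KD replicate 5.

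H3f3b was at 1029, 970.1, 937 and 1026 FPKM in control and 1030.0, 868 and 1179 FPKM in KD 2-cell embryos. In morulae H3f3b was at 589, 777, 933 and 899 FPKM in control and 769, 768 and 999 FPKM in KD libraries. In blastocysts H3f3b was at 1542, 1844, 1328 and 1345 FPKM in control and 1584, 1307, 838 and 1187 FPKM in KD libraries. Groups overlapped at every stage, and KD replicate 5 was the lowest blastocyst library. The KD effects on the log2 scale were 0.11 (95% interval -0.28 to 0.49), 0.22 (-0.28 to 0.72) and -0.32 (-0.85 to 0.21) in stage order, with adjusted limma p of 0.933, 0.542 and 0.333. The 2-cell value was -0.0200 without KD replicate 4 and 0.26 without KD replicate 2. In morulae it was 0.0157 without control replicate 1, 0.0620 without KD replicate 6 and 0.0927 with FPKM as deposited. The blastocyst value was -0.0909 without KD replicate 5 and -0.48 without KD replicate 1.

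In controls, the 2 genes were also compared over development. From morula to blastocyst, H3f3b rose by 0.95 on the log2 scale (SE 0.23, limma, adjusted p = 0.00145). Over the same step H3f3a fell by 0.79 (SE 0.26, limma, adjusted p = 0.0174). The H3f3a call did not hold without control morula replicate 1 (-0.63, adjusted p = 0.0740), without control blastocyst replicate 4 (-0.70, adjusted p = 0.0556) or with no filter on low FPKM (adjusted p = 0.0575). From the 2-cell stage to morula H3f3b fell by 0.52 (SE 0.23, limma, adjusted p = 0.0400), a call lost under 8 of 12 other settings, among them FPKM as deposited (-0.33, adjusted p = 0.0819). It was lost without control 2-cell replicate 1, 2 or 5 and without control morula replicate 1 or 2, where the adjusted p lay between 0.0615 and 0.185. Over that step H3f3a differed by 0.50 (SE 0.26, 95% interval -0.04 to 1.05) and did not pass (limma, adjusted p = 0.0819), but it passed with FPKM as deposited (0.69, adjusted p = 0.0164) and in a fit of the 2 groups alone (0.69, adjusted p = 0.00418). Between these stages, FPKM as deposited moved the median of all genes by 0.11 on the log2 scale relative to scaled FPKM.

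The share of H3f3a in the sum of H3f3a and H3f3b was 17.8, 19.5, 25.5 and 18.5% in control and 13.8, 19.4 and 12.1% in KD 2-cell libraries. In morulae the share of H3f3a was 51.7, 30.2, 25.9 and 30.2% in control and 28.8, 53.1 and 27.1% in KD libraries. In blastocysts the share of H3f3a was 14.6, 9.90, 14.1 and 15.5% in control and 17.0, 18.5, 19.6 and 15.4% in KD libraries. Control and KD overlapped at every stage, and every morula library lay above every 2-cell and blastocyst library. The KD difference of the log2 ratio H3f3a to H3f3b was -0.54 in 2-cell embryos (two-sided exact permutation test, n = 4 and 3, p = 0.114, adjusted over 6 ratio tests 0.229). It was 0.10 in morulae (exact p = 0.800, n = 4 and 3). Without KD replicate 2 the morula value was -0.41, and without control replicate 1 it was 0.46. In blastocysts the difference was 0.46 (exact p = 0.0571, n = 4 and 4, adjusted 0.171), or 0.30 without control blastocyst replicate 4.

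**Figure D3:**
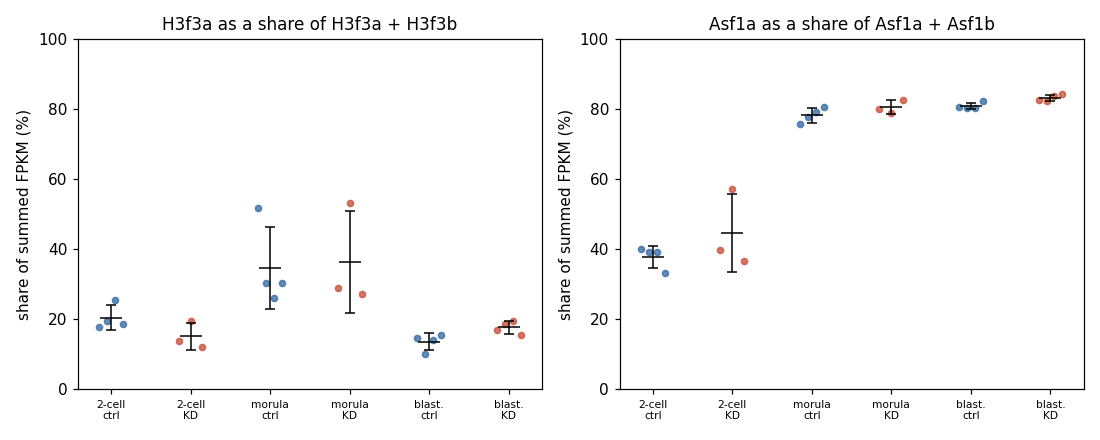
Share of H3f3a in the summed FPKM of H3f3a and H3f3b, and of Asf1a in the summed FPKM of Asf1a and Asf1b (y axis, percent), per library, with mean and SD, by stage and treatment. The Asf1a share was 33.1 to 40.0% in control 2-cell libraries and 80.1 to 82.3% in control blastocysts.

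Hira, Ubn1 and Cabin1 form the HIRA complex, in which HIRA is the scaffold, UBN1 binds H3.3 and CABIN1 binds HIRA. Hira lies at chr16:18877037-18970309 (plus strand), Ubn1 at chr16:5050057-5086289 (plus strand) and Cabin1 at chr10:75646112-75764341 (minus strand). For each of the 3, every morula and blastocyst library lay below every 2-cell library. From the 2-cell stage to morula in controls, Ubn1 fell by 2.50 (SE 0.17, limma, adjusted p = 6.32e-12), Cabin1 by 1.95 (SE 0.14, limma, adjusted p = 9.82e-12) and Hira by 1.06 (SE 0.19, limma, adjusted p = 2.72e-05) on the log2 scale. From morula to blastocyst Hira fell by a further 0.94 (SE 0.19, limma, adjusted p = 0.000293), from a mean of 2.22 to one of 0.573 FPKM. At these levels the pseudocount sets the size of the change, and with 0.1 in place of 1 Hira fell by 1.68 (limma, adjusted p = 6.98e-05). Over that step the difference of Ubn1 was -0.22 (95% interval -0.57 to 0.14) and did not pass by limma, and it was -0.44 with a pseudocount of 0.1 and -0.13 without control morula replicate 1. Cabin1 was under 1 FPKM in every morula and blastocyst library and entered the fit of 22 libraries through its 2-cell levels, so that its change between these stages was not testable there.

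Hira was at 3.41, 5.35, 5.01 and 6.50 FPKM in control and 3.56, 6.00 and 4.81 FPKM in KD 2-cell embryos. In morulae Hira was at 2.24, 1.12, 2.24 and 3.29 FPKM in control and 1.09, 0.881 and 0.906 FPKM in KD libraries. In blastocysts Hira was at 0.532, 0.698, 0.598 and 0.464 FPKM in control and 1.05, 0.805, 1.96 and 0.753 FPKM in KD libraries. KD libraries of Hira overlapped controls at the 2-cell stage and lay below all controls in morulae, by a narrow margin to control replicate 2. They lay above all controls in blastocysts, where KD replicate 5 was highest, beside 14.6% of the genes tested there. The log2 fold change was -0.01 in 2-cell embryos (95% interval -0.50 to 0.48, limma, adjusted p = 0.998). In morulae it was -0.60 (SE 0.23, 95% interval -1.11 to -0.10) and did not pass (limma, adjusted p = 0.105; exact permutation p = 0.0571, n = 4 and 3). Without control morula replicate 2 it was -0.79 and passed (adjusted p = 0.0390), and with a pseudocount of 0.1 it was -0.93 (adjusted p = 0.103). The smallest value with 1 library left out was -0.43. With the FPKM of an overlapping gene added, as described below, the morula value was -0.34 (limma, adjusted p = 0.200). In blastocysts Hira was below the filter, and the exact permutation test on its scaled values gave p = 0.0286 (n = 4 and 4), the smallest that the 70 arrangements allow. With the overlapping gene added, the blastocyst groups overlapped, at 2.06 to 2.83 FPKM in control and 2.27 to 3.79 FPKM in KD libraries. The log2 fold change of that sum was 0.15 and did not pass (limma, adjusted p = 0.503).

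The KD effect on Hira differed between morulae and blastocysts by 0.95 on the log2 scale (SE 0.28, 95% interval 0.37 to 1.54) in the fit of all 22 libraries (limma, adjusted p = 0.0351). No other member passed, beside 9.35% of 15697 tested genes, and Cabin1 entered this test only through its 2-cell levels. Hira was below the filter in the blastocyst fit, where 0 control and 2 KD libraries reached 1 FPKM. It entered this test mostly through its 2-cell and morula levels. With only the morula and blastocyst libraries in the fit, 8 of the 9 genes were tested and Hira alone passed (limma, adjusted p = 0.0309), beside 1495 of 12727 genes. Between morulae and 2-cell embryos 0 of the 9 passed by limma, beside 1.35%. At an unadjusted p under 0.05 there were Hira and Atrx in the test between blastocysts and morulae, beside 3583 of all genes, and Daxx in that between morulae and 2-cell embryos, beside 2282. With each of the 15 morula and blastocyst libraries left out in turn, the difference for Hira between those stages was 0.78 to 1.13 and the adjusted p 0.00995 to 0.0760. The call was lost in 10 of these 15 fits, namely without control morula replicate 1, 7 or 8, KD morula replicate 1, 2 or 6, control blastocyst replicate 1 or 6, or KD blastocyst replicate 1 or 5. It was also lost with no filter on low FPKM (adjusted p = 0.0856). With a pseudocount of 0.1 the difference was 1.67 and passed (limma, adjusted p = 0.0229).

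Reads of Hira can also belong to Gm28539, a protein-coding gene annotated on the same strand. The exons of the 2 genes share 2778 bases, and 39.3% of the 6577 stretches of 100 bases of Hira occur in Gm28539. Its level was 5.76 ± 0.543 FPKM (mean and SD) in control and 4.39 ± 0.517 FPKM in KD 2-cell embryos. Gm28539 was at 2.30 ± 0.272 and 2.11 ± 0.175 FPKM in control and KD morulae and at 1.84 ± 0.233 and 1.67 ± 0.243 FPKM in control and KD blastocysts. Its own KD effects, -0.27, 0.00 and -0.09 on the log2 scale, did not pass at any stage by limma. When the FPKM of Hira and Gm28539 were added, an alternative chosen after the data were seen, the difference between the KD effects in blastocysts and morulae was 0.43 (SE 0.20, limma, adjusted p = 0.206). The falls of the sum over control development, -1.25 and -0.66, still passed (limma, adjusted p = 2.29e-08 and 0.000400). How reads were divided between Hira and Gm28539 was not tested.

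Ubn1 was at 10.2, 8.29, 10.1 and 9.77 FPKM in control and 9.70, 14.1 and 9.40 FPKM in KD 2-cell embryos. In morulae Ubn1 was at 1.59, 1.13, 0.843 and 0.619 FPKM in control and 1.74, 1.18 and 0.849 FPKM in KD libraries. In blastocysts Ubn1 was at 0.458, 0.573, 0.814 and 1.05 FPKM in control and 0.889, 0.870, 2.49 and 1.22 FPKM in KD libraries. Control and KD overlapped at every stage, with KD replicate 5 again the highest blastocyst library. KD effects on Ubn1 were 0.23, 0.21 and 0.42 on the log2 scale in stage order, with adjusted limma p of 0.848, 0.464 and 0.109, and the blastocyst interval was -0.00 to 0.83. The 2-cell value was 0.0935 without KD replicate 2. In morulae Ubn1 ranged from 0.0803 without KD replicate 1 to 0.33 without KD replicate 6, and with a pseudocount of 0.1 it was 0.38 in morulae and 0.77 in blastocysts.

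Cabin1 was at 3.93 to 6.71 FPKM in control and 3.67 to 6.58 FPKM in KD 2-cell embryos, where its log2 fold change was -0.03 (95% interval -0.50 to 0.44, limma, adjusted p = 0.989). In later stages Cabin1 was at 0.420 to 0.973 FPKM in control and 0.381 to 0.684 FPKM in KD libraries. Control and KD overlapped at each stage. Exact permutation tests gave p = 0.686 in morulae (n = 4 and 3) and p = 0.171 in blastocysts (n = 4 and 4).

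Asf1a and Asf1b encode the 2 ASF1 chaperones, which hand H3-H4 dimers to HIRA and to the replication-coupled assembly factor CAF-1. Asf1a lies at chr10:53596757-53609225 and Asf1b at chr8:83955507-83970197, both on the plus strand. Their coding regions of 615 and 609 bases align over 606 bases, of which 170 differ (71.9% identity), and the longest shared stretch is 20 bases. Of the transcript stretches of Asf1a, 39.0% overlapped Mcm9 on the opposite strand, which was at 0.341 to 2.58 FPKM.

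The 2 paralogs moved in opposite directions as control embryos passed from the 2-cell stage to morula. Asf1a rose by 1.67 on the log2 scale (SE 0.19, limma, adjusted p = 3.41e-08), whereas Asf1b fell by 0.87 (SE 0.17, limma, adjusted p = 5.73e-05). From morula to blastocyst the differences were 0.12 (95% interval -0.27 to 0.51) for Asf1a and -0.11 (95% interval -0.46 to 0.23) for Asf1b, and neither passed by limma. The share of Asf1a in their summed FPKM was accordingly 33.1 to 40.0% in control 2-cell embryos, 75.6 to 80.5% in control morulae and 80.1 to 82.3% in control blastocysts. These ranges did not overlap between 2-cell embryos and the later stages, and the Asf1a share of morulae and blastocysts overlapped.

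After KD, Asf1a was at 62.5, 99.5 and 62.1 FPKM in 2-cell embryos, against 57.2, 56.6, 67.5 and 55.2 FPKM in controls. KD replicate 2 was the highest and control replicate 4 lay within the KD range. The log2 fold change of Asf1a was 0.37 (95% interval -0.01 to 0.75, limma, adjusted p = 0.828). Its exact permutation p on scaled values, not adjusted over genes, was 0.0286 (n = 4 and 3), the smallest that 35 arrangements allow. Without KD replicate 2 the difference was 0.18. In morulae Asf1a was at 165 to 258 FPKM in control and 168 to 233 FPKM in KD libraries, and in blastocysts at 208 to 248 and 181 to 253 FPKM. Its log2 fold changes at these stages, -0.03 and -0.05, did not pass (limma, adjusted p = 0.951 and 0.862).

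Asf1b was at 85.9, 88.4, 105 and 112 FPKM in control and 94.5, 74.6 and 107 FPKM in KD 2-cell embryos. In morulae Asf1b was at 53.1, 58.6, 66.5 and 62.7 FPKM in control and 46.9, 45.0 and 48.7 FPKM in KD libraries. In blastocysts Asf1b was at 50.3, 56.2, 59.8 and 53.3 FPKM in control and 53.0, 47.3, 35.1 and 46.0 FPKM in KD libraries. As deposited, the morula groups did not overlap, the other groups did, and KD replicate 5 was the lowest blastocyst library. After scaling, the morula groups of Asf1b overlapped as well. The log2 fold changes were -0.03 (95% interval -0.41 to 0.36), -0.23 (-0.59 to 0.13) and -0.28 (-0.67 to 0.12) in stage order, with adjusted limma p of 0.989, 0.370 and 0.265. The morula value was -0.35 without control replicate 1 and with FPKM as deposited, and its smallest size with 1 library left out was -0.17. The blastocyst value was -0.11 without KD replicate 5. After scaling, the two-sided exact permutation p in morulae was 0.171 (n = 4 and 3).

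The KD difference of the log2 ratio Asf1a to Asf1b was 0.39 in 2-cell embryos (two-sided exact permutation test, n = 4 and 3, p = 0.343). It rested on KD replicate 2, whose Asf1a share was 57.2%, beside 39.8 and 36.7% in the other KD libraries, and was 0.0290 without that library and 0.62 without KD replicate 4. The difference was 0.20 in morulae (exact p = 0.257, n = 4 and 3), where it was 0.13 without control replicate 1 and 0.0991 without KD replicate 6, and 0.23 in blastocysts (exact p = 0.0286, n = 4 and 4, adjusted over 6 ratio tests 0.171). In blastocysts the Asf1a share was 80.6, 80.1, 80.4 and 82.3% in control and 82.6, 82.3, 83.8 and 84.2% in KD libraries. All KD libraries lay above all controls, with control replicate 6 and KD replicate 4 equal to the digit given.

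Daxx and Atrx act together: DAXX binds H3.3, and ATRX is the chromatin remodeler that brings it to repeats. Daxx lies at chr17:33909414-33915590 (plus strand) and Atrx at chrX:105797615-105929403 (minus strand). In controls, Daxx fell by 0.62 (SE 0.23, limma, adjusted p = 0.0164) and Atrx by 0.78 (SE 0.27, limma, adjusted p = 0.0129) from the 2-cell stage to morula. Neither call held with FPKM as deposited (-0.49, adjusted p = 0.0908, and -0.60, adjusted p = 0.0702). The Daxx call was also lost without control morula replicate 2 (-0.55, adjusted p = 0.0502) and the Atrx call without control morula replicate 7 (-0.52, adjusted p = 0.0784). From morula to blastocyst the differences were -0.29 (95% interval -0.76 to 0.19; -0.50 to -0.11 with 1 library left out) for Daxx and 0.09 (95% interval -0.48 to 0.66) for Atrx, and neither passed by limma.

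Daxx was at 3.62, 3.00, 4.45 and 3.57 FPKM in control and 3.39, 4.58 and 5.05 FPKM in KD 2-cell embryos. In morulae Daxx was at 3.57, 1.84, 2.23 and 1.84 FPKM in control and 1.27, 0.745 and 1.80 FPKM in KD libraries. In blastocysts Daxx was at 0.712, 3.40, 1.62 and 1.61 FPKM in control and 1.75, 0.957, 3.75 and 1.85 FPKM in KD libraries. As deposited, only the morula groups did not overlap, with KD replicate 6 just below the lowest controls, and they overlapped after scaling. Blastocyst libraries of either group spread widely. KD effects on Daxx, on the log2 scale, were 0.25 (95% interval -0.18 to 0.67), -0.48 (-0.94 to -0.02) and 0.13 (-0.48 to 0.73) in stage order, with adjusted limma p of 0.850, 0.149 and 0.757. The two-sided exact permutation p in morulae was 0.114 (n = 4 and 3). Daxx was at 0.13 without 2-cell KD replicate 4 and 0.37 without 2-cell KD replicate 1, and in morulae at -0.30 without KD replicate 2 and -0.75 with a pseudocount of 0.1 (adjusted p = 0.149). The blastocyst value reversed to -0.06 without control replicate 1, and to -0.06 without KD replicate 5.

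Atrx was at 41.2, 42.5, 39.0 and 35.2 FPKM in control and 68.6, 41.8 and 46.0 FPKM in KD 2-cell embryos. In morulae Atrx was at 39.5, 34.2, 14.1 and 22.7 FPKM in control and 35.2, 43.6 and 19.6 FPKM in KD libraries. In blastocysts Atrx was at 16.7, 40.8, 33.5 and 23.6 FPKM in control and 21.7, 14.6, 24.8 and 16.9 FPKM in KD libraries. All groups overlapped. In morulae of either treatment, the libraries numbered 1 and 2 were higher (means of 36.8 FPKM in control and 39.4 FPKM in KD) than those with higher numbers (18.4 and 19.6 FPKM), and what separates these numbers is not stated. These ranges also lay apart in both morula groups for Ubn1 and Cabin1, higher in libraries 1 and 2. They did so for H3f3b, Asf1a and Asf1b, lower in libraries 1 and 2. The log2 fold changes of Atrx were 0.43 (95% interval -0.01 to 0.87), 0.39 (-0.33 to 1.10) and -0.48 (-0.98 to 0.03) in stage order, with adjusted limma p of 0.828, 0.442 and 0.128. Without 2-cell KD replicate 1, the highest library, the 2-cell value was 0.21. The morula value was 0.13 without control replicate 7, 0.15 without KD replicate 2, 0.68 without KD replicate 6 and 0.24 with a term for the number range. Without control blastocyst replicate 4 the blastocyst value was -0.31. The blastocyst value passed when control replicate 1, the lowest control, was left out (-0.66, adjusted p = 0.0399).

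Over control development as a whole, 1 of the 9 genes rose and 7 fell from the 2-cell stage to morula, beside 39% and 41.3% of 15697 tested genes. With FPKM as deposited 2 rose (Asf1a and H3f3a) and 4 fell (Ubn1, Cabin1, Hira and Asf1b), beside 6525 and 6100 of all genes. Of the 9 genes, 4 (Asf1a, Ubn1, Cabin1 and Hira) passed with scaling and also changed by more than 1 on the log2 scale, beside 54.6% of all tested genes. Hira, however, fell by 0.93 with FPKM as deposited and by 0.87 without control morula replicate 2. From morula to blastocyst, H3f3b rose, beside 24.5% of all tested genes, and H3f3a and Hira fell, beside 20.6%. Cabin1 could not be tested over that step, and with only these groups in the fit 8 genes were tested, of which 1 rose and 2 fell, beside 3274 and 3413 of 11849 genes. With a pseudocount of 1 none of these genes exceeded 1 on the log2 scale in that step, beside 19.1%, but Hira and H3f3b were close to it. Hira fell by 1.68 with a pseudocount of 0.1, by 1.03 in a fit of the 2 groups alone and by 1.12 without control morula replicate 2, and H3f3b reached 1.05 with 1 library left out. The median change of the 9 genes was -0.78 for the first step, beside -0.02 over all genes tested.

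For each of the 9 genes, the gene with the most similar profile over the 22 libraries was sought among 15697 genes by Pearson correlation of log2 scaled FPKM. This is a description with no test, since libraries of a stage cluster together and stage differences dominate it. For H3f3a the highest r was 0.806 (Gm45864), for H3f3b 0.929 (Calm2) and for Hira 0.951 (Ncmap). The closest gene to Ubn1 was Camsap1 (r = 0.993), to Cabin1 Gm22825 (0.994), to Asf1a Gm7666 (0.973) and to Asf1b Phospho2 (0.966). Daxx and Atrx were closest to Bap1 (0.882) and Atp11b (0.856).

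Other genes of H3-H4 handling were followed as 2 lists, 22 further chaperones and assembly factors and 10 partners and readers of H3.3 and its chaperones. Pml and Sp100 of the second list were below the filter in every comparison. In 2-cell embryos 0 of 22 tested chaperones and 0 of 7 tested partners passed between KD and control by limma, with 2 and 1 at an unadjusted p under 0.05, beside 701 of 12160 genes. In morulae 0 of 21 and 0 of 6 passed by limma, with 3 and 1 at an unadjusted p under 0.05, beside 3352 of 10989 genes. In blastocysts 3 of 20 chaperones and 3 of 7 partners were higher after KD and 0 were lower (limma), beside 16.7% higher and 19.8% lower of all tested genes. The median log2 fold change of the tested chaperones was -0.13, 0.13 and 0.17 in stage order and that of the partners 0.20, 0.23 and 0.17, beside 0.00, 0.02 and 0.00 over all genes tested.

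The 3 chaperones were Ipo4, an importin that carries H3-H4 to the nucleus, Spty2d1, which encodes an H3-H4 chaperone of transcribed chromatin, and Supt6, a histone chaperone that travels with RNA polymerase II. Ipo4 was at 2.24, 3.92, 4.74 and 4.38 FPKM in control and 7.01, 5.86, 13.4 and 4.96 FPKM in KD blastocysts. Spty2d1 was at 3.02, 2.69, 2.80 and 2.62 FPKM in control and 4.85, 5.00, 7.64 and 5.27 FPKM in KD blastocysts. Supt6 was at 0.830, 1.16, 0.910 and 1.34 FPKM in control and 1.52, 1.59, 3.31 and 3.01 FPKM in KD blastocysts. KD libraries lay above all controls for each of these genes, and KD replicate 5 was the highest. The log2 fold changes were 0.82 (SE 0.25, limma, adjusted p = 0.0205), 0.80 (SE 0.17, adjusted p = 0.00289) and 0.67 (SE 0.19, adjusted p = 0.0155). The Ipo4 call did not hold without control replicate 1 (0.68, adjusted p = 0.0587) or with no filter on low FPKM (adjusted p = 0.0879), and the Supt6 call did not hold with no filter (adjusted p = 0.0542). With a pseudocount of 0.1 the blastocyst value of Supt6 was 1.03 (adjusted p = 0.0165). In morulae Supt6 was at 4.50, 3.43, 2.06 and 1.85 FPKM in control and 4.83, 6.92 and 3.88 FPKM in KD libraries, which overlapped. Its log2 fold change there was 0.77 (SE 0.24) and did not pass (limma, adjusted p = 0.0546). It passed with a term for the number range, 1 and 2 against higher (0.68, adjusted p = 0.0221), in 1 fit over all 22 libraries (0.78, adjusted p = 0.0153) and without control replicate 1 (0.89, adjusted p = 0.0329), and in 0 of the 10 other settings, where the adjusted p reached 0.207.

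The 3 partners were Chd1, a remodeler implicated in H3.3 deposition, Trim28, the corepressor recruited by zinc-finger proteins to repeats, and Morc3, an ATPase of the MORC family. Chd1 was at 2.03, 3.06, 3.10 and 3.69 FPKM in control and 3.67, 4.37, 8.76 and 5.75 FPKM in KD blastocysts. Trim28 was at 23.6, 31.3, 30.4 and 28.1 FPKM in control and 38.8, 30.9, 72.1 and 40.1 FPKM in KD blastocysts. Morc3 was at 11.9, 15.3, 14.6 and 14.4 FPKM in control and 19.2, 21.9, 20.6 and 23.0 FPKM in KD blastocysts. Only Morc3 had groups without overlap, and KD replicate 5 was the highest library for Chd1 and Trim28. The log2 fold changes were 0.70 (SE 0.21, limma, adjusted p = 0.0192) for Chd1, 0.60 (SE 0.20, adjusted p = 0.0309) for Trim28 and 0.57 (SE 0.15, adjusted p = 0.0107) for Morc3. The Chd1 call did not hold without control replicate 1 (0.62, adjusted p = 0.0527) or with no filter on low FPKM (adjusted p = 0.0623), and the Trim28 call was lost in 7 of the 8 fits that left out 1 library and in 9 of all 14 other settings. In morulae Chd1 was at 7.49, 5.75, 4.65 and 3.34 FPKM in control and 10.6, 9.31 and 5.97 FPKM in KD libraries, with overlap, and its log2 fold change of 0.73 (SE 0.22) did not pass (limma, adjusted p = 0.0533). Chd1 passed with the term for the number range (0.64, adjusted p = 0.0173), in 1 fit over all 22 libraries (0.74, adjusted p = 0.0218), without control replicate 1 (0.83, adjusted p = 0.0363) and without KD replicate 6 (0.92, adjusted p = 0.0335), and in 0 of the 9 other settings, where the adjusted p reached 0.182. In the test of the difference between KD effects in blastocysts and morulae, 0 of 22 chaperones and 0 of 8 partners passed by limma, with 3 and 0 at an unadjusted p under 0.05, beside 3583 of 15697 genes. Zmynd11 of the partners was under 1 FPKM in every morula and blastocyst library and entered that fit through its 2-cell levels.

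The lists were also followed over control development. From the 2-cell stage to morula, 10 of 22 chaperones were higher and 8 lower, and 1 of 8 tested partners was higher and 5 lower (limma), beside 39% and 41.3% of all tested genes. From morula to blastocyst, 2 of 22 chaperones were higher and 12 lower, and 2 of 8 partners were higher and 3 lower, beside 24.5% and 20.6%. These counts hold genes that were in the fit of 22 libraries only through another stage, Chd2 for the first step and Ubn2 and Zmynd11 for the second, and none of them passed there. The median change of the chaperones was 0.25 in the first step and -0.44 in the second. That of the partners was -0.67 and 0.02, beside -0.02 and 0.00 over all genes tested.

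The p-values above measure the spread between these libraries of pooled embryos, with 3 or 4 in a group. A p that missed the threshold does not show that a gene was equal in control and KD embryos, and the intervals give the differences that these libraries allow.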

How the data were processed

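Alignment by the authors used STAR and mm10, and they deposited FPKM from StringTie 2.1.4, 1 value for each gene and library; the deposited FPKM were used as given, and 0 pairs of libraries were identical. Replicates are separate libraries of pooled embryos. Of 55335 genes, 13853 were at 0 throughout. Identifiers matched GENCODE M21 with the same version for 54587 genes, the 9 members included, and positions and transcript sequences were taken from it.

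Within a stage, libraries were scaled by median-of-ratios factors (0.960 to 1.10, 0.930 to 1.19 and 0.908 to 1.13 in stage order). Genes with at least 1 FPKM in at least 3 libraries were kept, and log2 values were taken with a pseudocount of 1. Control and KD were compared with limma 3.58.1 (lmFit, eBayes with a trend) in R 4.3.3, with Benjamini-Hochberg adjustment over all genes tested. Genes passed at an adjusted p under 0.05. Control development and differences of KD effects came from 1 fit over all 22 libraries (15697 genes, factors 0.875 to 1.25). Intervals are 95% intervals of the fit. Single genes were also given a two-sided exact permutation test on scaled log2 values. These p-values were not adjusted over genes, and only some of them are printed. The 6 paralog ratios had the same test with Benjamini-Hochberg adjustment over the 6.

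All members were named, with at most 4 genes per list and stage that passed in KD morulae or blastocysts (largest absolute log2 fold change), the KD target, the 1 gene most correlated with each member, and marker lists by their sums. Gm28539 and the processed copies were named after their overlap was seen. The members and lists were chosen with earlier results of these data known.

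Alternatives were FPKM as deposited, a pseudocount of 0.1, no filter on low FPKM, the replicate number as a block, the range of replicate numbers as a term, other sets of libraries in the fit, and leaving out each library. The steps were tested on simulated data. Depth in reads is unknown; the relative depth (14.8 to 28.7) was taken from 13491 single-exon genes, of whose low values 9.05 to 20.9% lay on whole steps (tolerance 0.01). Sequences were handled with Python 3.11.15 and Biopython 1.88, tables with pandas 2.3.3 and numpy 2.4.6, and plots with matplotlib 3.10.9.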

Additional observations from a re-analysis of the deposited data

Results flagged for a closer look

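H3f3a in control 2-cell replicate 4 was at 321 FPKM, and its distance to the nearest of the other 3 controls (235 FPKM) was 0.874 of the range of the group. Asf1a in the same library was at 67.5 FPKM, and its distance to the next control was 0.839 of the range. Both values lie above the level of 0.829 that sets a library apart in a group of 4. Of the 36 groups of 4 libraries examined, 2 held such a value, and chance gives about 1 in 20. Without this library the H3f3a difference between KD and control was -0.35 on the log2 scale, and 0 of the 9 genes passed by limma.

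The KD effect on Hira differed between blastocysts and morulae by 0.95 on the log2 scale in the test of that difference (limma, adjusted p = 0.0351). Of all 15697 tested genes, 9.35% passed that test. This call was lost in 10 of the 15 fits that left out 1 morula or blastocyst library, and with no filter on low FPKM. Hira was below that filter in the blastocyst fit. In morulae the KD libraries were below all controls, beside 22.9% of all tested genes. In blastocysts they were above all controls, beside 14.6% of the genes tested there, which did not include Hira. Hira shares 39.3% of its transcript stretches with Gm28539, and with both genes added the difference was 0.43 (adjusted p = 0.206). How reads were divided between the 2 genes was not tested.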

How the results depend on the processing

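With FPKM as deposited in place of scaled FPKM, the median of all genes moved by 0.11 on the log2 scale between control 2-cell embryos and morulae and by -0.10 between KD and control morulae. The KD effect on Ipo4 in morulae reversed to -0.00892. The genes that passed the difference of KD effects between morulae and 2-cell embryos became 328, beside 212. The differences of KD effects between blastocysts and morulae reversed to 0.0106 for Cabin1 (below the filter at both stages), 0.0957 for Asf1a and 0.0675 for Asf1b. Of the genes past the test in morulae, 15.3% were higher, beside 31.9% with scaling, and of those past the difference between blastocysts and morulae 54.8%, beside 43.5%. With a pseudocount of 0.1, the difference of KD effects between morulae and 2-cell embryos reversed to 0.11 for Ubn1.

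With no filter on low FPKM, 412 genes passed in KD morulae, beside 1458, and 0 members passed the difference of KD effects between blastocysts and morulae, beside 1. More genes were tested there, so that the adjustment was over a longer list. With only the groups compared in the fit, the change of Atrx from morula to blastocyst reversed to -0.00920. With 1 fit over all 22 libraries, 33 genes passed at the 2-cell stage, beside 0, and the KD effects there reversed to 0.0240 for Hira, 0.00360 for Cabin1 and 0.0141 for Asf1b. The cause was not tested.

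Control and KD libraries share replicate numbers. The correlation of their residuals was 0.146 on average for same-numbered 2-cell libraries, 0.138 in morulae and 0.0826 in blastocysts. Libraries with different numbers averaged -0.0488, -0.0282 and -0.0288 in stage order. A library was closest to its own number in 5 of 6, 2 of 4 and 3 of 8 cases. Whether the numbers pair the libraries is not stated, and the main tests used no block. The blocked fit keeps only libraries whose number occurs in both groups, which leaves out 2-cell control replicate 5, control morula replicates 7 and 8 and KD morula replicate 6. In it 1 member passed in morulae, Daxx at -0.75 (limma, adjusted p = 0.0497). With all morula libraries and no block Daxx had an adjusted p of 0.149, and without a block it was 0.0713 to 0.447 over the other alternatives. The fit with the replicate block also gave reversed 2-cell KD effects of 0.0956 for Hira, 0.0739 for Cabin1 and 0.0355 for Asf1b, the same values as without control replicate 5 and with no block. In morulae it reversed Asf1a to 0.12 and the ratio of H3f3a to H3f3b to -0.0116. Hira (-0.30, limma, adjusted p = 0.511) and Asf1b (-0.11, adjusted p = 0.798) were smaller in that fit of morulae, and H3f3b (0.35) was larger. Correlations between control and KD morulae were 0.0944 to 0.347 where both numbers were 1 or 2 or both were higher, and -0.278 to -0.0945 otherwise. What separates these ranges is not stated. With the range of numbers as a term, 2038 genes passed in morulae, beside 1458, with 0 members among them, and Supt6 and Chd1 passed there (adjusted p = 0.0221 and 0.0173). Hira and Asf1b in 2-cell embryos reversed to 0.0229 and 0.0233, and Asf1a in morulae to 0.0689. The cause was not tested.

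When libraries were left out singly, the genes past the test numbered 0 to 3 in 2-cell embryos and 551 to 1744 in morulae, and 95 to 275 for the difference between morulae and 2-cell embryos. The lowest morula counts came without KD replicate 2 (551) and KD replicate 1 (579), and 3 genes passed at the 2-cell stage without KD replicate 1. Members past the test numbered 0 to 1 in morulae (Hira, without control replicate 2), 0 to 1 in blastocysts (Atrx, without control replicate 1) and 0 to 1 for the difference between blastocysts and morulae.

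KD effects that reversed in such fits ranged in 2-cell embryos from -0.0200 to 0.26 for H3f3b, -0.14 to 0.15 for Hira, -0.19 to 0.11 for Cabin1 and -0.16 to 0.15 for Asf1b. In morulae they ranged from -0.13 to 0.65 for H3f3a and -0.22 to 0.10 for Asf1a, and in blastocysts from -0.13 to 0.11 for Asf1a and -0.0644 to 0.35 for Daxx. The morula ratio of H3f3a to H3f3b ranged from -0.41 to 0.46. Over control development, H2afz ranged from -0.0936 to 0.20 in the first step, and Asf1a from -0.0638 to 0.24 and Atrx from -0.17 to 0.25 in the second.

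The differences of KD effects between morulae and 2-cell embryos ranged from -0.10 to 0.22 for H3f3b, -0.18 to 0.0842 for Ubn1, -0.19 to 0.11 for Cabin1 and -0.32 to 0.24 for Atrx. Those between blastocysts and morulae ranged from -0.56 to 0.22 for H3f3a, -0.00476 to 0.29 for Ubn1, -0.13 to 0.00704 for Cabin1, -0.21 to 0.10 for Asf1a and -0.22 to 0.0528 for Asf1b. None of the values that reversed had passed the test with all libraries.

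The falls of Ubn1, Cabin1, Hira and Asf1b and the rise of Asf1a from the 2-cell stage to morula kept their direction and passed in all 12 alternatives, as did the rise of H3f3b from morula to blastocyst, and Hira also in the alternative chosen after the data were seen, its sum with Gm28539. The 2-cell difference of H3f3a kept its sign in 13 of 13 alternatives (-0.51 to -0.35) and passed in 0. Depth in reads is unknown, so no counting error can be given, and at levels near 1 FPKM the pseudocount sets the size of a log2 change.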
